A study of Mus musculus with 6 samples.

Results

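Cells that held RNA of Atf3, Chac1 and Ddit3 at the same time were examined in day 6 embryoid bodies of a mouse motor neuron differentiation. A cell counted as an Atf3 Chac1 Ddit3 cell when its barcode had at least 1000 genes, at most 10% of its UMIs (unique molecular identifiers, the count of captured RNA molecules) from mitochondrial genes, and at least 1 UMI of each of the 3 genes. This rule found 847 cells among 16225 kept cells, or 5.22% with an exact Clopper-Pearson 95% interval from 4.88 to 5.57, and each of the 6 libraries held some. The intervals on shares cover counting error only. The cells were thus chosen by their measured UMIs of Atf3, Chac1 and Ddit3, so the levels of these genes are given below as a description. They were left out of the test against comparison cells.

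The starting HB9::GFP mESC (mouse embryonic stem cells) carry a green fluorescent reporter under the promoter of Hb9 (Mnx1), active in motor neurons, and the embryoid bodies were profiled with 10x Chromium 3' single-cell RNA sequencing. All libraries were from unsorted embryoid bodies as far as the labels say, and they carried 3 genotypes at the lncMN2 locus: wild type (WT), lncMN2_SP-/- (DeltaSP) and lncMN2-/- (KO). The DeltaSP and KO cells were clones made with CRISPR/Cas9, and each genotype was represented by 2 clones with 1 library each. A p-value between genotypes therefore measures the spread between 2 clones of a kind, and clone and genotype cannot be told apart beyond that spread.

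WT 1 stood apart in depth: its kept cells had a median of 4157 UMIs, against medians from 11898.5 to 15112 in the other libraries. Library totals ran from 24191242 to 49061693 UMIs over 24215 barcodes in all. Pairs of libraries shared 0 to 6 barcodes of kept cells and 0 barcodes of Atf3 Chac1 Ddit3 cells. The transcript 5330434G04Rik (chromosome X, 105348282 to 105391776, minus strand, GRCm38), taken here as lncMN2, gave 14 and 75 UMIs in the Atf3 Chac1 Ddit3 cells of WT 1 and WT 2, 41 and 37 in those of DeltaSP 1 and 2, and 0 in those of KO 1 and KO 2, so the genotype labels of the KO libraries matched this transcript. No doublet caller was run. Leaving out the 10% of cells with the most UMIs in each library was tried as an alternative chosen after seeing the data.

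The 3 genes belong to the integrated stress response. In this response, kinases that sense unfolded protein in the endoplasmic reticulum, shortage of amino acids, double-stranded RNA or lack of heme phosphorylate the translation factor eIF2 alpha, which lowers protein synthesis in general but favours translation of the transcription factor ATF4. ATF4 then induces genes for amino acid synthesis and uptake and tRNA charging, together with the transcription factors ATF3 and CHOP (encoded by Ddit3) and the enzyme CHAC1, which degrades glutathione. ATF4 and its CCAAT/enhancer-binding partners, CHOP among them, bind composite DNA elements, and prolonged CHOP activity is known to favour cell death.

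Sequence around the start sites shows what some of these genes share. The composite element was searched as TGATGNAA on both strands, from 250 bases before to 50 bases after each RefSeq start site (GRCm38.p6). For 6 genes described below, a window of 30 bases is printed 5′ to 3′ on the gene's own strand, with the match in capitals. TTNCATCA is the same motif read on the opposite strand.
Atf3: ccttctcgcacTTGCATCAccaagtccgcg
Chac1: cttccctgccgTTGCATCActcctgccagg
Asns: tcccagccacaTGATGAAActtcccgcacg
Slc7a11: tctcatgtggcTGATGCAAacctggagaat
Pck2: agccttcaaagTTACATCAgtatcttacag
Herpud1: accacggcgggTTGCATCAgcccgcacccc
The Atf3 window is chr1:191183425-191183454 on the minus strand, with the match starting at −110 from the RefSeq start site, and the Chac1 window is chr2:119351038-119351067 on the plus strand, with the match at −193. The Asns window is chr6:7693214-7693243 on the minus strand with the match at −23, and the Slc7a11 window is chr3:50443661-50443690 on the minus strand with a match at −66, 1 of 2 in that promoter. The Pck2 window is chr14:55540152-55540181 on the plus strand with the match at −103, and the Herpud1 window is chr8:94386306-94386335 on the plus strand with the match at −112. No match was found in the promoter window of Ddit3. The search left 1 chromosome out, and over the 27025 genes with a promoter searched, 1219 (4.51%) held a match. Among the integrated stress response and ATF4 target genes that were higher in the Atf3 Chac1 Ddit3 cells (results below), 43 had a promoter searched and 14 of these (32.6%) held a match. These lists name known targets of factors that bind this element, so the higher share is no independent evidence. Among the endoplasmic reticulum chaperone genes that were lower, 0 of 13 held a match. With so few genes this cannot be told from the share of all genes. A match is a run of letters, and binding was not measured here.

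Atf3 (chromosome 1, 191170296 to 191218039, minus strand) encodes a stress-induced bZIP repressor and activator. In the Atf3 Chac1 Ddit3 cells its level, in CPM (UMIs of the gene over all UMIs of the summed cells, scaled to counts per 1e6), was 251 in WT 1, 186.6 in WT 2, 182.1 in DeltaSP 1, 197.7 in DeltaSP 2, 150.9 in KO 1 and 203.1 in KO 2. Chac1 (chromosome 2, 119351229 to 119354381, plus strand) was at 235.2, 209.6, 279.8, 295.5, 189.7 and 301.2 CPM in the same order. Ddit3 (chromosome 10, 127290774 to 127296288, plus strand) was at 300.2, 166.3, 199.8, 216, 186.1 and 204.8 CPM. A second gene record of the same name overlaps it at 127290829 to 127293753, so the Ddit3 counts may join or split between them. In comparison cells of like depth, defined below, Atf3 ran from 6.55 to 18.9 CPM, Chac1 from 11.9 to 22.9 and Ddit3 from 17.0 to 46.7, a gap the rule itself creates.

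Detection of the 3 genes went together over kept cells, in shares that were not matched for depth. Where a kept cell had UMIs of Chac1 and Ddit3, Atf3 was detected in 44.9% to 67.1% of cells over the 6 libraries, against 6.71% to 12.6% of all other kept cells. For Chac1 the shares were 43.4% to 82.8% where the other 2 genes were present and 7.64% to 17.1% elsewhere, and for Ddit3 55.3% to 74.8% and 17.7% to 25.1%. No cell type in the embryoid bodies is known to lack these genes, so the shares elsewhere cannot be split into free RNA and expression. Detection also depends on depth. In WT 2, Ddit3 was detected in 28.7% of kept cells and in 9.20% of cells thinned at random to 3000 UMIs each. The part of depth in these contrasts was not tested.

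Many cells lay near the edge of the rule. The median Atf3 Chac1 Ddit3 cell had 1 UMI of each gene in WT 1 and 2 to 4 UMIs of each in the other libraries, and in WT 1 83 of 89 such cells had a single UMI of at least 1 of the genes. In WT 2 this was 87 of 149 cells, in DeltaSP 1 96 of 156, in DeltaSP 2 129 of 222, in KO 1 85 of 127 and in KO 2 61 of 104. Just outside the rule, 162 to 313 kept cells per library had UMIs of exactly 2 of the 3 genes. No barcode with 900 to 999 genes met the gene rule, and 0 to 2 barcodes per library met it with 10% to 11% mitochondrial UMIs. At so few UMIs per gene, these counts do not tell a continuous range of expression from a separate class that is sampled incompletely.

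The share of Atf3 Chac1 Ddit3 cells was 1.98% in WT 1 (95% interval 1.59 to 2.43) and 9.24% in WT 2 (7.87 to 10.8). It was 6.83% in DeltaSP 1 (5.83 to 7.95) and 6.16% in DeltaSP 2 (5.40 to 7.0), and 5.97% in KO 1 (5.0 to 7.06) and 4.95% in KO 2 (4.06 to 5.97). The WT libraries were the lowest and the highest of the 6, and every mutant library lay between them.

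The mean share was 5.61% ± 5.14 (SD, n = 2) in WT, 6.50% ± 0.474 (SD, n = 2) in DeltaSP and 5.46% ± 0.716 (SD, n = 2) in KO. KO minus WT was −0.152 percentage points and DeltaSP minus WT 0.888, both smaller than the spread between the WT clones (two-sided exact permutation p = 1 for each). KO minus DeltaSP was −1.04 points, larger than the SD of either genotype and with no overlap between their clones. Its two-sided exact permutation p was 0.333, the smallest p that 2 clones against 2 can give, so this design could not pass a threshold of 0.05. The clones of KO and DeltaSP did overlap under other limits. With at least 500 genes and up to 20% mitochondrial UMIs, KO 1 was at 5.56% and DeltaSP 2 at 5.37%. With UMIs of at least 2 of the 3 genes, KO 1 was at 15.8% and DeltaSP 2 at 14.9%, and they also overlapped after the thinning given below. The low share of WT 1 went with its low depth. When each cell was thinned to 3000 UMIs, leaving out the 936 WT 1 cells, 101 WT 2 cells and 56 to 201 cells per mutant library that were shallower, the shares were 0.954% in WT 1, 0.927% in WT 2, 0.826% in DeltaSP 1, 1.47% in DeltaSP 2, 0.820% in KO 1 and 0.851% in KO 2. At equal depth 5 libraries thus lay between 0.820% and 0.954%, and DeltaSP 2 was above them. These shares rest on only 34, 14, 18, 50, 17 and 17 cells in the same order, from a single random draw. No interval was computed for them, and the position of DeltaSP 2 was not tested.

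**Figure D1:**
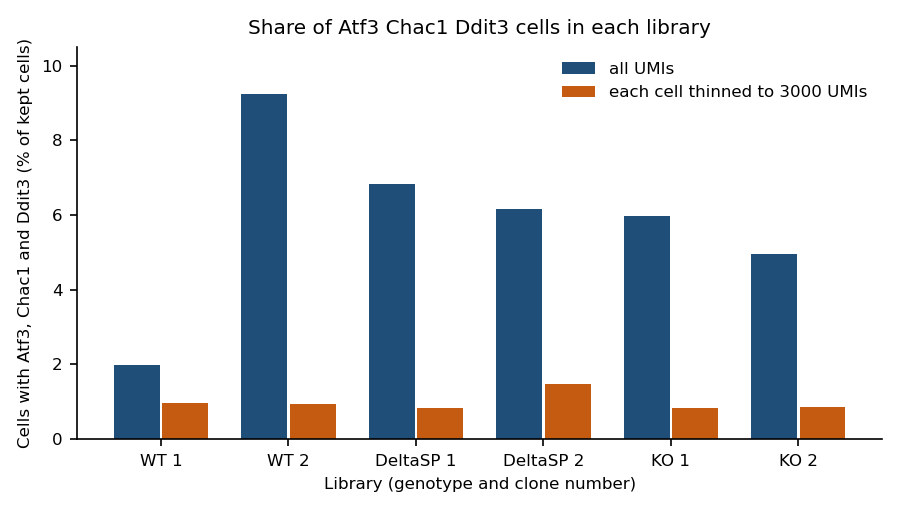
Share of kept cells that met the Atf3 Chac1 Ddit3 rule in each library (y axis, percent), with all UMIs (blue) and with each cell thinned to 3000 UMIs (orange). With all UMIs the shares ran from 1.98% (WT 1) to 9.24% (WT 2), and after thinning from 0.820% (KO 1) to 1.47% (DeltaSP 2).

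To describe what else these cells expressed, each was set against 5 kept cells of the same library that did not meet the rule and had the nearest UMI totals, 4235 comparison cells in all. Counts were summed per library over each set and tested with edgeR's quasi-likelihood test with library as a block and Benjamini-Hochberg adjustment over 10845 genes, without Atf3, Chac1 and Ddit3. Median UMIs of the 2 sets differed by at most 1.94% in any library (WT 2). Means were less close in WT 1, with 6401 UMIs per cell in the Atf3 Chac1 Ddit3 cells and 5006 in the comparison cells (27.9% more) at 90th percentiles of 7114 and 7189, so the largest cells weigh on the WT 1 member sum, while the other libraries differed by 0.38% to 7.17%. The difference between the sets was wide: 2875 genes (26.5%) were higher in the Atf3 Chac1 Ddit3 cells and 3061 (28.2%) lower at an adjusted p under 0.05, with a median log2 fold change of −0.04 over all genes tested. Without WT 1 the counts were 3054 and 3061, and without the 10% of cells with the most UMIs 3011 and 3361. Comparison cells could hold UMIs of 1 or 2 of the rule genes. Each list count given below for this comparison is to be read beside 26.5% of all genes tested higher and 28.2% lower.

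Transcription factors of the stress response rose together. Of 9 tested, 7 were higher and 1 lower, with a median log2 fold change of 1.29. Atf4, the factor translated when eIF2 alpha is phosphorylated, was at 621.4, 714.3, 730, 684.4, 688.6 and 825.7 CPM in the Atf3 Chac1 Ddit3 cells of WT 1, WT 2, DeltaSP 1, DeltaSP 2, KO 1 and KO 2, and at 295.8, 240, 243.4, 213.7, 249.6 and 241.1 CPM in the comparison cells. The ranges did not overlap, and the log2 fold change was 1.52 (SE 0.07, edgeR adjusted p = 4.7e-11).

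Other bZIP factors that pair with ATF4 or CHOP moved the same way, with log2 fold changes of 2.28 for Jdp2, 1.59 for Cebpb, 1.29 for Atf5 and 1.13 for Cebpg. Nfe2l2, which encodes the antioxidant regulator NRF2, fell by 0.39 on the log2 scale. It lost its call when at least 2 UMIs of each rule gene were required, a setting that left 6 cells in WT 1. Atf6, the sensor and factor of another arm of the unfolded protein response, had a log2 fold change of 0.32 (edgeR adjusted p = 0.037), a call lost under 7 of 14 alternatives. Xbp1, the target of the IRE1 arm, had a log2 fold change of 0.05 (edgeR adjusted p = 0.53). Of 6 genes for eIF2 alpha and its kinase machinery, upstream of ATF4, 0 passed in either direction (edgeR; 6478 of all 10845 genes had an unadjusted p under 0.05). The log2 fold change of Eif2ak3, the endoplasmic reticulum kinase PERK, was 0.23 (SE 0.15, edgeR adjusted p = 0.20) and that of Eif2s1, eIF2 alpha itself, 0.12 (SE 0.06, edgeR adjusted p = 0.084).

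Trib3 (chromosome 2, 152337422 to 152344032, minus strand), a pseudokinase that dampens ATF4 and CHOP activity, rose the most of the feedback genes. It stood at 57.9, 39.6, 47.8, 56.7, 43.6 and 61.1 CPM in the Atf3 Chac1 Ddit3 cells and at 6.3, 3.9, 4.3, 5.9, 3.5 and 5.9 CPM in the comparison cells, in the same library order. The lowest member library was above the highest comparison library by a wide margin, and the log2 fold change was 3.36 (SE 0.10, edgeR adjusted p = 9.1e-13). Of 9 feedback genes that limit the response or protein synthesis, Trib3 included, 8 rose and 1 fell, with a median of 1.36. Sesn2, an inhibitor of mTORC1 signalling, rose by 1.92, Ddit4, another mTORC1 inhibitor, by 1.79, and Eif4ebp1, a repressor of cap-dependent translation, by 1.36. Ppp1r15a, the GADD34 subunit that directs removal of the phosphate from eIF2 alpha, rose by 1.43, and its constitutive counterpart Ppp1r15b by 0.87. Klhl24 fell by 0.82.

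**Figure D2:**
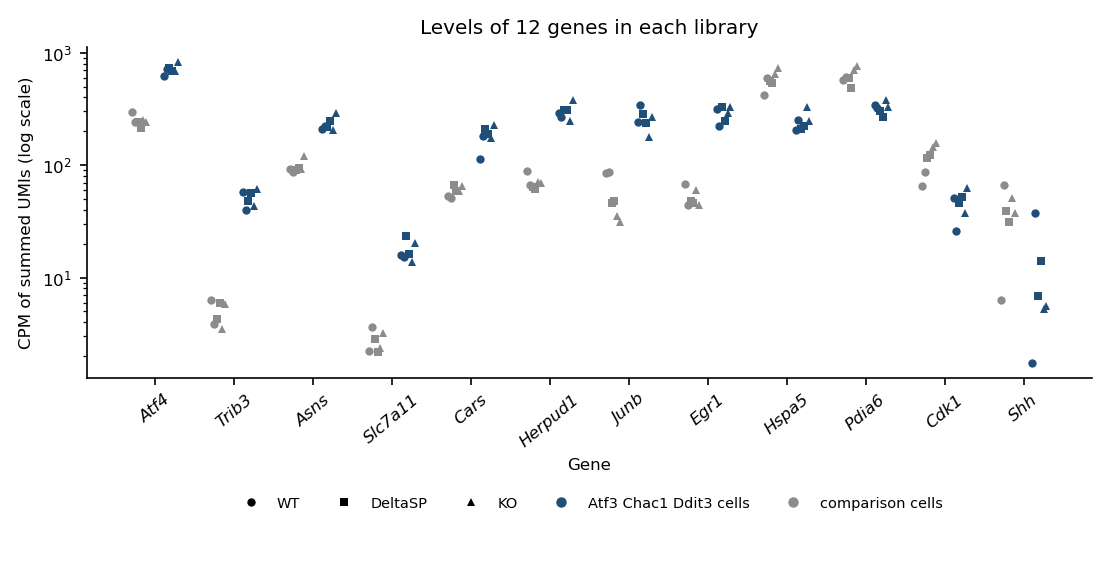
Level of 12 genes in CPM of the summed UMIs (y axis, log scale) in the Atf3 Chac1 Ddit3 cells (blue) and in depth-matched comparison cells (grey), with 1 point per library and the marker giving the genotype. Blue points of Trib3 lie between 39.6 and 61.1 and grey points between 3.5 and 6.3, while Hspa5 and Cdk1 lie lower in blue than in grey in each library.

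Amino acid synthesis and one-carbon genes, classic targets of ATF4, rose in 12 of 14 cases with none lower. Among all genes tested 26.5% rose and 28.2% fell. The median log2 fold change of the list was 1.23. Asns makes asparagine and carries the motif match shown above 23 bases before its start site. It was at 208.9, 221.7, 216.3, 247.2, 203.3 and 290.6 CPM in the Atf3 Chac1 Ddit3 cells and at 92.5, 87, 90.3, 94.9, 93.2 and 119.5 CPM in the comparison cells. The sets did not overlap, and the log2 fold change was 1.24 (SE 0.05, edgeR adjusted p = 2.8e-11).

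Gpt2, which makes alanine in mitochondria, rose by 1.72, Aldh18a1 of proline synthesis by 1.43, and Cth of cysteine synthesis by 1.44. Pck2, a mitochondrial enzyme that makes phosphoenolpyruvate, rose by 1.44. The mitochondrial folate enzymes Mthfd2 and Shmt2 rose by 1.42 and 1.23. The serine pathway rose by unequal amounts, with Psph at 1.22, Psat1 at 0.61 and Phgdh, its first enzyme, at 0.54. In the whole list Gpt2 had the largest fold change, and the smallest among those named was that of Phgdh.

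Amino acid transporters rose in 8 of 10 cases and fell in 1, where 26.5% of all genes tested rose and 28.2% fell. The list median was 1.46. Slc7a11, the cystine importer xCT, was a low-level gene at 15.8, 15.1, 23.3, 16.1, 13.6 and 20.2 CPM in the Atf3 Chac1 Ddit3 cells and 2.2 to 3.7 CPM in the comparison cells, a log2 fold change of 2.60 (SE 0.18, edgeR adjusted p = 6.1e-09). Slc3a2, the heavy chain that Slc7a11 and Slc7a5 need at the membrane, was at 490 ± 54.5 CPM (SD, n = 6) against 159 ± 11, and rose by 1.61. The light chain Slc7a5 rose by 1.30, the cationic amino acid transporter genes Slc7a3 and Slc7a1 by 2.33 and 1.17, the neutral amino acid transporter Slc1a4 by 1.92, and the glycine transporter Slc6a9 by 1.99. Thus both chains of the cystine importer were higher in every library.

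All 12 tRNA synthetase genes tested rose, against 26.5% of all genes tested. All 12 of these synthetase genes did so in each of the 15 fits (the main one and 14 alternatives). Their changes were smaller than those of the transporters, with a median of 0.69. Cars, which charges cysteine tRNA, was at 112.3, 182.8, 209.4, 189.3, 172.9 and 225.5 CPM against 53.4, 51.5, 66.8, 59.5, 59.3 and 64.8 CPM, a log2 fold change of 1.63 (SE 0.07, edgeR adjusted p = 2.8e-11). WT 1 had the lowest Cars level of the 6 and was still above every comparison library. Yars (tyrosine), Aars (alanine), Nars (asparagine) and Gars (glycine) rose by 1.13, 0.97, 0.88 and 0.70, and the smallest named change was that of Eprs (glutamate and proline), 0.28.

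Over all the integrated stress response and ATF4 or CHOP lists together, sensors included, 56 of 75 tested genes rose and 5 fell. Among all genes tested 26.5% rose and 28.2% fell. The median log2 fold change was 0.88 in the lists against −0.04 for all genes. These lists were chosen with earlier results of the same data known, so their direction is no independent evidence.

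Other ATF4 or CHOP targets were mixed: 10 of 16 rose and 2 fell, with a median of 0.45. Herpud1, a component of endoplasmic reticulum associated degradation, was at 293.2, 266.4, 306.7, 307.8, 248.6 and 378.1 CPM against 88, 66.4, 64.4, 61.6, 71.5 and 69.6 CPM, a log2 fold change of 2.09 (SE 0.08, edgeR adjusted p = 9.7e-12), with no overlap between the sets. Txnip, a thioredoxin-binding protein that limits glucose uptake, rose by 2.01 (462 ± 115 CPM against 112 ± 22.4, SD, n = 6). Stc2, a secreted glycoprotein of stressed cells, rose by 2.08.

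Gdf15, a secreted stress hormone, had the largest fold change of the named genes but a low level. It was at 5.3, 6.9, 16.9, 17.7, 13.6 and 10.1 CPM in the Atf3 Chac1 Ddit3 cells and at 0.9, 0.6, 1, 0.6, 0.3 and 0.6 CPM in the comparison cells, and the log2 fold change was 4.28 (SE 0.26, edgeR adjusted p = 1.5e-09). Every library showed the rise, and the 2 WT libraries had the lowest member levels.

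Of 17 apoptosis regulators, 5 rose and 5 fell, shares near those of all genes tested (26.5% and 28.2%), with a median of −0.02. Of 21 p53 targets, 12 rose and 2 fell, with a median of 0.17. The BH3-only genes Bbc3 (PUMA) and Pmaip1 (NOXA), which CHOP or ATF4 as well as p53 can induce, rose by 1.02 and 1.99, Pmaip1 from a low level of 1.82 ± 0.566 to 8.59 ± 2.92 CPM (SD, n = 6). The anti-apoptotic Mcl1 rose by 0.37. Mdm2, the p53 ubiquitin ligase, rose by 0.79, Phlda3 by 0.78, and Cdkn1a, the cell cycle inhibitor p21, by 0.63. Sesn2 and Bbc3 stand in more than 1 of the lists.

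Endoplasmic reticulum chaperones and other unfolded protein response genes went the opposite way. Of 21 tested, 16 were lower and only Herpud1 was higher, where 28.2% of all genes tested were lower and 26.5% higher. The list had a median log2 fold change of −0.64, and over the 15 fits 16 or 17 were lower and 1 higher. Hspa5 encodes BiP, the main chaperone of the endoplasmic reticulum and a standard marker of the ATF6 arm. It was at 203.6, 251.3, 210.7, 224.4, 331.4 and 249.1 CPM in the Atf3 Chac1 Ddit3 cells and at 418.4, 595.2, 556.2, 534.1, 646.9 and 730.5 CPM in the comparison cells. The highest member library (KO 1) lay below the lowest comparison library (WT 1), and the log2 fold change was −1.28 (SE 0.07, edgeR adjusted p = 2.2e-10).

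The disulfide isomerases Pdia6 and Pdia4 fell by 0.96 and 0.73, the chaperones Hsp90b1 (GRP94) and Calr (calreticulin) by 0.94 and 0.83, the secreted factor Manf by 0.73, and the cochaperone Dnajb9 by 0.41. Lists for cell types rich in secreted matrix fell as well, 6 of 10 p3 or floor plate genes and 7 of 7 mesoderm genes (values below). Their part in the chaperone result was not tested.

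**Figure D3:**
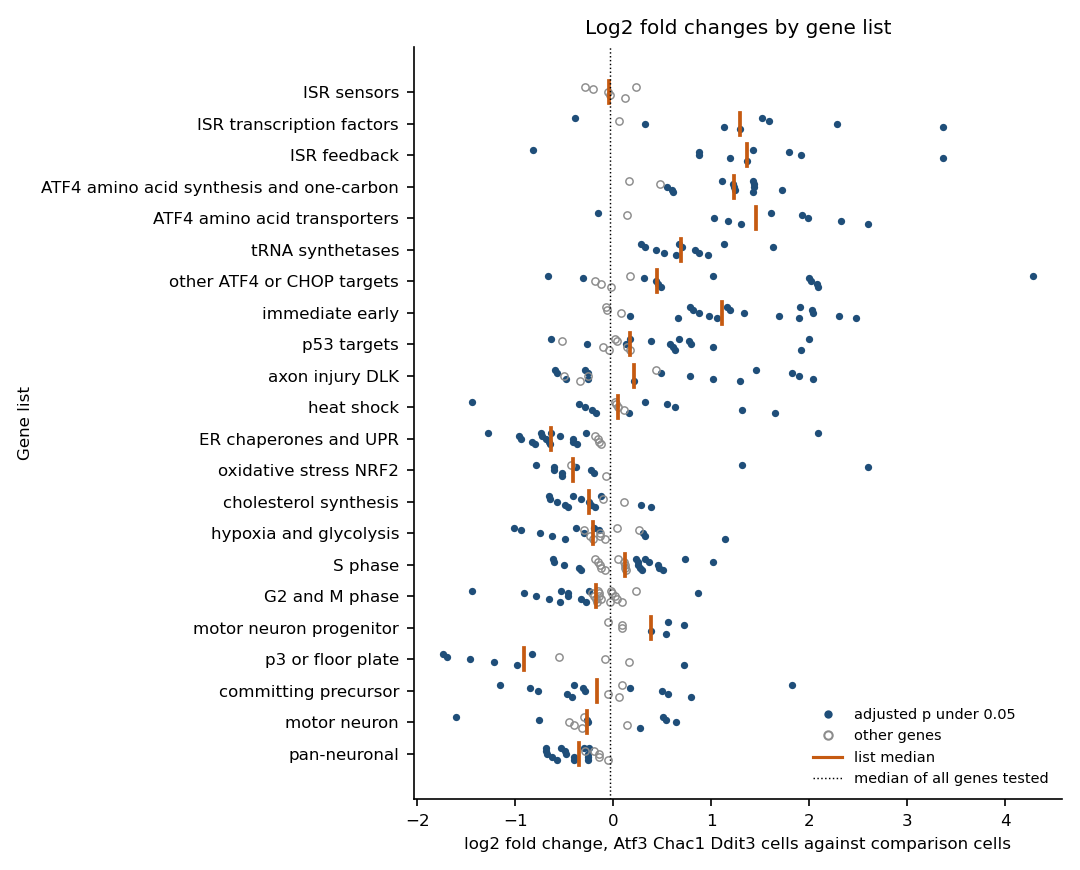
Log2 fold change of each tested gene (x axis), Atf3 Chac1 Ddit3 cells against comparison cells, for 22 gene lists (y axis), with filled points at an edgeR adjusted p under 0.05, orange bars at list medians and a dotted line at the median of all genes. Medians of the ATF4 amino acid lists lie above 1, that of the endoplasmic reticulum chaperones at −0.64, and Gdf15 is the point beyond 4.

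Immediate early genes, transcribed within minutes of a stimulus or of tissue dissociation, were high in the same cells. Of 20 tested, 17 rose and 0 fell (edgeR), with a median of 1.11. Junb, an AP-1 subunit given as a marker of this state but not used by the rule, was at 244, 340.8, 285, 235.7, 177.8 and 267 CPM in the Atf3 Chac1 Ddit3 cells and at 85.3, 87.1, 46, 48.2, 35.7 and 31.5 CPM in the comparison cells. All member libraries were above all comparison libraries, and the log2 fold change was 2.30 (SE 0.12, edgeR adjusted p = 3.3e-10).

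Egr1, a zinc finger factor induced by growth factors and stress, was at 317.7, 222.4, 330.1, 246.3, 289.1 and 327 CPM against 67.8, 44.4, 47.7, 45.8, 59.8 and 43.9 CPM, a log2 fold change of 2.48 (SE 0.08, edgeR adjusted p = 1.3e-12). Fos rose by 2.04, Klf10 by 2.03, Jun by 1.90, Nr4a1 by 1.91 and Ier2 by 1.69. Of 19 genes linked to axon injury signalling through the kinase DLK, which also induces Jun and Atf3, 9 rose and 6 fell, with a median of 0.21. The shares of all genes tested were 26.5% and 28.2%. Over the 15 fits 7 to 10 genes of this list rose and 1 to 10 fell. Gadd45g, a growth arrest gene that is also a mark of committing neural precursors, rose by 1.82 (1197 ± 364 CPM against 329 ± 59.6, SD, n = 6).

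Heat shock genes did not move as a group, with 6 of 15 higher, 5 lower and a median of 0.04, where 26.5% and 28.2% of all genes tested were higher and lower. Hspa1a, the inducible HSP70, rose by 1.64 from a low level, while the small heat shock gene Hspb1 fell by 1.45. Genes driven by NRF2 fell in 8 of 12 cases and rose in 2, with a median of −0.41. The 2 that rose were Slc7a11, also an ATF4 target, and Hmox1, heme oxygenase 1, by 1.31. The antioxidant enzyme genes Prdx1 and Txnrd1 fell by 0.79 and 0.61.

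Among metabolic lists, cholesterol synthesis fell in 11 of 15 cases and rose in 2, with a median of −0.25, and Sqle and Idi1, enzymes of that pathway, each fell by 0.65. Hypoxia and glycolysis genes fell in 9 of 20 cases and rose in 3, where 28.2% of all genes tested fell and 26.5% rose. Slc2a1, the glucose transporter GLUT1, fell by 0.94, while Vegfa, an angiogenic factor that ATF4 can also induce, rose by 1.14. Mat2a, which makes S-adenosylmethionine, fell by 1.17.

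The share of mitochondrial RNA was alike in both sets. The median mitochondrial share ran from 3.27% to 4.79% in the Atf3 Chac1 Ddit3 cells and from 3.31% to 4.92% in the comparison cells. Of 13 mitochondrially encoded genes, 1 was higher and 4 lower, and of 11 mitochondrial proteostasis genes, 5 were higher and 4 lower. Among all genes tested 26.5% were higher and 28.2% lower, and 4 of 13 is near the latter. Genes detected per cell were slightly more in each library, with medians from 2083 to 4539 against 1942 to 4396.

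Several of the largest rises lay outside all lists. Cxcl10 (chromosome 5, 92346638 to 92348889, minus strand) encodes a chemokine induced by interferon and NF-kappa-B. It was at 5.3, 8.9, 309.6, 133.9, 5.7 and 237.8 CPM in the Atf3 Chac1 Ddit3 cells and at 0.4, 1.8, 28.2, 12.9, 1.8 and 12.1 CPM in the comparison cells. DeltaSP 1, DeltaSP 2 and KO 2 were high in both sets and the other 3 libraries low, and members were above comparison cells in all 6. The values rest on 3 and 1 UMIs in WT 1 and on 13 and 19 in KO 1. The log2 fold change was 3.48 (SE 0.17, edgeR adjusted p = 9.8e-11).

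Isg15, an interferon-induced ubiquitin-like protein, was at 0, 1.03, 200.2, 48.9, 5.72 and 46.0 CPM in the Atf3 Chac1 Ddit3 cells and at 0, 1.40, 53.7, 47.7, 5.66 and 15.2 CPM in the comparison cells, high in the same 3 libraries as Cxcl10. The interferon list as a whole had 2 of 14 genes higher and 2 lower, against 26.5% and 28.2% of all genes tested. Relb and Map3k14 (NIK), of the noncanonical NF-kappa-B pathway, rose by 1.93 and 2.24.

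Tnfrsf19 (TROY), a receptor of the tumour necrosis factor family, rose by 2.19, and Mef2b, a MADS-box transcription factor, by 2.41. Tha1, threonine aldolase, rose by 2.11. The small nucleolar RNA host gene Snhg12 rose by 2.20 (194 ± 62.7 CPM against 46.0 ± 28.3, SD, n = 6), and the linker and core histone genes Hist1h1c and Hist1h2bc by 2.14 and 2.10. The little-characterised transcripts Gm16973, 5430416N02Rik and 1810032O08Rik rose by 2.47, 2.36 and 2.27. Each of these rises was seen in 6 of 6 libraries.

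Cell cycle genes were split, beside 26.5% of all genes tested higher and 28.2% lower. Of 27 S phase genes, 12 rose and 5 fell, with a median of 0.12, and of 27 genes of G2 and M phase, 1 rose and 11 fell, with a median of −0.18. The counts were unstable over the 15 fits, from 5 to 14 higher S phase genes and from 9 to 19 lower G2 and M phase genes. Cdk1, the mitotic kinase, was at 50.9, 26.2, 46.2, 52.2, 37.4 and 62.3 CPM in the Atf3 Chac1 Ddit3 cells and at 65.1, 86.6, 115, 121.9, 143.6 and 155.8 CPM in the comparison cells. The sets did not overlap and the log2 fold change was −1.44 (SE 0.11, edgeR adjusted p = 2.3e-08).

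Ccnd1, the cyclin that carries cells through G1, fell the most of the cell cycle genes named here, by 2.23, with 3.2 to 16.7 CPM against 23.3 to 65.5 CPM. The proliferation marker Mki67 fell by 0.92, Ccnb2 by 0.65 and Rrm2, a subunit of ribonucleotide reductase, by 0.61. The replication licensing genes Cdt1, Mcm5 and Mcm6 rose by 1.02, 0.73 and 0.51, and the single riser among the G2 and M phase genes was the mitotic kinase gene Aurka, by 0.87. Thus the fall of Cdk1 and Ccnd1 was not shared by the licensing genes.

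The identity of the cells was read from marker lists, beside 26.5% of all genes tested higher and 28.2% lower. Motor neuron progenitor genes rose in 4 of 7 cases with 0 lower (edgeR), with a median of 0.39, and p3 or floor plate genes, marks of the most ventral neural tube, fell in 6 of 10 cases and rose in 1, with a median of −0.91. Neurog2, a proneural factor of motor neuron progenitors, rose by 0.55, and Olig2, the factor that defines them, was at 259 ± 101 CPM against 238 ± 72.0 (SD, n = 6), a log2 fold change of 0.09 (SE 0.07, edgeR adjusted p = 0.29). Shh, the ventral morphogen of the floor plate, was at 1.8, 37.5, 6.8, 14.2, 5.3 and 5.6 CPM against 6.3, 66.8, 39.3, 31, 50.9 and 37.6 CPM. It was lower in 6 of 6 libraries, though the sets overlapped because WT 1 was low and WT 2 high in both, and the log2 fold change was −1.70 (SE 0.22, edgeR adjusted p = 8.6e-06).

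Floor plate secreted factors moved with Shh: Vtn (vitronectin), Spon1 (F-spondin) and the axon guidance ligand Ntn1 fell by 1.94, 1.74 and 1.47, and the floor plate regulator Foxa2 fell by 0.83. The growth factor Ptn fell by 1.5, the chemokine Cxcl12 by 1.57, the basement membrane collagen Col4a1 by 1.51 and Kbtbd11 by 1.49. Of the neural progenitor list, 5 of 15 rose and 6 fell, against 26.5% and 28.2% of all genes tested. The radial glia gene Fabp7 fell by 1.01, whereas Pax6 and Sox9, transcription factors of neural progenitors, rose by 0.91 and 0.72. Sox2 had a log2 fold change of −0.18 (edgeR adjusted p = 0.045), a call lost under 7 of 14 alternatives.

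Genes of cells leaving the cycle were also mixed, with 5 of 16 committing precursor genes higher and 8 lower. The former is near the 26.5% of all genes tested that were higher. Over the 15 fits 4 to 6 genes of this list were higher and 4 to 10 lower. Insm1, a zinc finger factor of newborn neurons, rose by 0.80, while Neurod4 and the Notch ligand gene Dll3 fell by 1.15 and 0.77. Motor neuron genes were split 4 higher to 4 lower among 13, near the shares of all genes tested (26.5% and 28.2%). Over the 15 fits 2 to 5 of them were higher and 1 to 7 lower. Mnx1 (Hb9), the motor neuron factor whose promoter drives the reporter, was at 145.7, 164.2, 217.9, 108.8, 233.2 and 153.7 CPM against 115.8, 112.9, 120, 79.8, 111.9 and 103.9 CPM. It was higher in each library, with overlap only because DeltaSP 2 was low in both sets, and rose by 0.64 (SE 0.08, edgeR adjusted p = 3.8e-06). Lhx3, its partner in early motor neurons, rose by 0.54 and Isl1, the LIM factor that marks postmitotic motor neurons, fell by 0.76.

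Pan-neuronal genes were lower in 15 of 20 cases and higher in 0 (edgeR), where 28.2% of all genes tested were lower and 26.5% higher. The list median was −0.35. The microtubule genes Dcx, Mapt, Stmn2 and Tubb3 fell by 0.69, 0.68, 0.57 and 0.49. This result depended on the comparison cells. Against comparison cells with no UMI of any of the 3 rule genes, 2 of 20 were lower and the median was −0.06, and without WT 1 12 were lower. Against the cells with no rule gene, Mapt, Stmn2 and Tubb3 lost their calls, at −0.42, −0.26 and −0.11 (edgeR adjusted p = 0.070, 0.28 and 0.61).

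Marker genes of other cell types were low. Summed over the whole list, blood markers came to 0.9 to 2.3 CPM in the Atf3 Chac1 Ddit3 cells of the 6 libraries, endoderm to 0 to 7.1, surface epithelium to 1.8 to 14.5, germ cells to 6.2 to 16.8 and pluripotent cells to 5.3 to 27.5. Mesoderm or mesenchyme genes came to 31.4 to 67.6 CPM, against 46.7 to 122 in the comparison cells. All 7 tested fell, the collagen gene Col3a1 by 2.78, Dcn (decorin) by 2.35 and Fn1 (fibronectin) by 0.64. Over the 15 fits, which did not all test the same genes, 2 to 14 of this list were lower and 0 higher. In the same cells pan-neuronal genes were far higher, at 4988 to 12904 CPM, as were neural progenitor genes, at 2458 to 3304 CPM. Not every neural list was high. Interneuron genes came to 22.1 to 95.4 CPM, near the mesoderm sums. Neural crest genes came to 14.1 to 69.6 CPM, glial genes to 35.1 to 53.01 and endothelial genes to 22.9 to 35.3. A summed level depends on which genes a list holds, so these sums alone do not rank cell identities.

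The spread of neural and stress lists among the cells was measured after thinning to 3000 UMIs, by the share of cells whose summed UMIs of a list exceeded the 75th percentile of their library. For immediate early genes 74.8% ± 5.18 (SD, n = 6 libraries) of the Atf3 Chac1 Ddit3 cells were above it, against 19.0% ± 3.19 of comparison cells, and for tRNA synthetases 60.0% ± 10.4 against 17.5% ± 5.12. For endoplasmic reticulum chaperones the share was 3.73% ± 1.19 against 26.0% ± 2.68. Identity lists went in both directions. The share was 29.5% ± 4.75 against 22.1% for motor neuron progenitor genes and 30.8% ± 2.69 against 24.1% for committing precursor genes, each higher in 6 of 6 libraries. It was 17.2% ± 4.74 against 24.9% for neural progenitor genes and 15.2% ± 5.14 against 21.4% for p3 or floor plate genes, each higher in 0 of 6 libraries. It was 17.4% ± 9.33 against 26.6% for pan-neuronal genes, higher in 1 of 6 libraries, and 20.5% ± 6.81 against 22.4% for motor neuron genes, higher in 2 of 6. Gadd45g made up much of the committing precursor sum, with 1197 of 2439 CPM against 329 of 1571 CPM in the comparison cells, while 8 of the 16 genes of that list were lower.

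**Figure D4:**
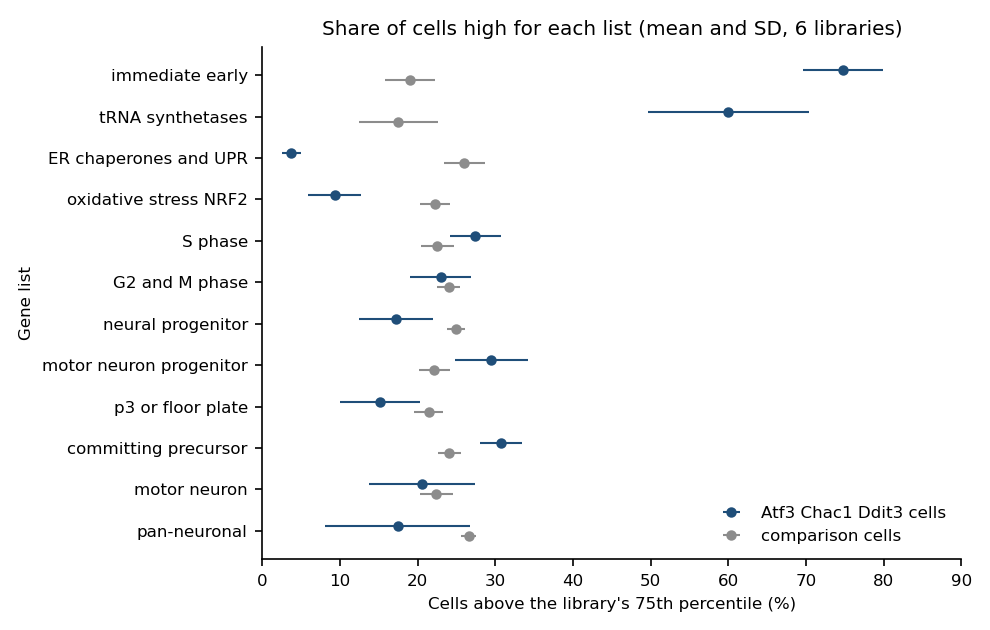
Share of cells above their library's 75th percentile of summed UMIs for 12 gene lists (x axis, percent), as mean and SD over 6 libraries, for Atf3 Chac1 Ddit3 cells (blue) and comparison cells (grey), each cell thinned to 3000 UMIs. Immediate early (74.8% against 19.0%) and tRNA synthetase genes (60.0% against 17.5%) lie far to the right in blue, and endoplasmic reticulum chaperones (3.73% against 26.0%) far to the left.

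Both sides of the neuronal range held such cells. The share of Atf3 Chac1 Ddit3 cells above their library's median of the pan-neuronal share of UMIs was 38.2% in WT 1, 44.3% in WT 2, 48.1% in DeltaSP 1, 46.4% in DeltaSP 2, 60.6% in KO 1 and 49.0% in KO 2, against 48.3% to 51.0% of comparison cells. Members and comparison cells were then compared separately above and below that median, a split chosen after seeing the data and made with pan-neuronal genes, whose own changes within it are therefore not a result. Above it, 1672 of 10397 genes were higher (16.1%) and 2749 lower (26.4%), and below it 2722 (26.2%) and 2893 (27.8%).

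The amino acid program appeared on both sides. Of 74 integrated stress response and ATF4 list genes, 52 rose and 4 fell above the median (median log2 fold change 0.79), and 57 rose and 7 fell below it (median 0.96). The test of the difference itself passed for 393 of all genes toward a higher fold change above the median (3.78%) and for 625 toward a higher one below it (6.01%), and for 3 and 13 of the 74 list genes. Asns rose by 1.03 above and 1.34 below the median, a difference of −0.31 (edgeR adjusted p = 0.021), and Atf4 by 1.29 and 1.62, a difference of −0.33 (edgeR adjusted p = 0.050). In the other direction, Cebpb rose by 1.96 above and 1.07 below, a difference of 0.89 (edgeR adjusted p = 0.011), and Eif4ebp1 by 1.69 and 1.10.

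Chaperones fell on both sides and by more below the median: 15 of 20 were lower above it (median −0.46) and 17 of 20 below it (median −0.86), and the difference passed for 9 toward a smaller fall above the median. Hspa5 fell by 1.0 above and by 1.79 below. Of 19 immediate early genes, 13 rose above the median and 16 below it with 0 lower on either side, and the difference passed for 7, all toward a larger rise below the median. Jun rose by 1.49 above and 2.23 below (difference −0.74, edgeR adjusted p = 5.6e-04) and Junb by 1.81 and 2.40 (difference −0.59, edgeR adjusted p = 0.019). Fos, another AP-1 gene, rose by 2.11 and 1.95 (difference 0.16, edgeR adjusted p = 0.69). The p53 target Cdkn1a had a log2 fold change of 0.06 above and 1.07 below, a difference of −1.02.

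**Figure D5:**
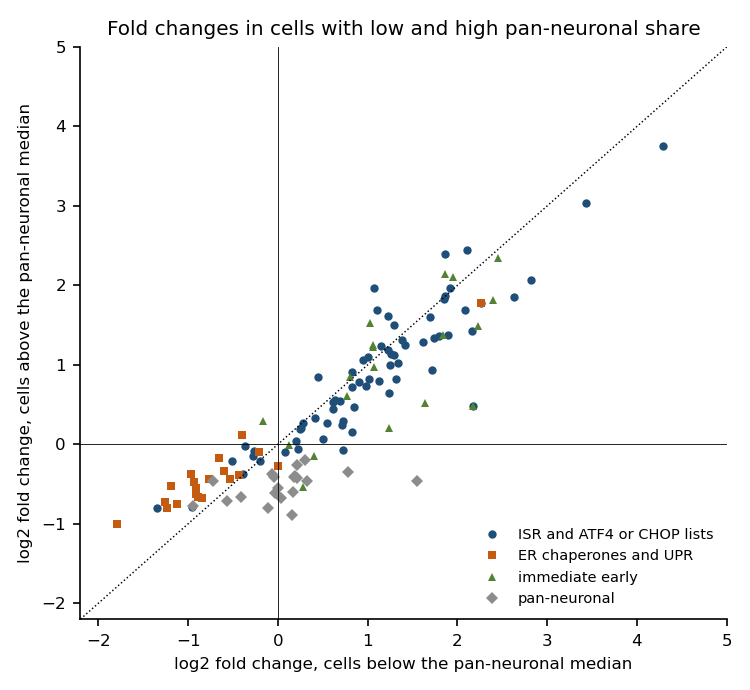
Log2 fold change of Atf3 Chac1 Ddit3 cells against comparison cells for cells below (x axis) and above (y axis) their library's median pan-neuronal share, with 1 point per gene of 4 list groups and a dotted line of equal values. Most blue points (integrated stress response and ATF4 or CHOP lists) lie in the upper right quadrant and most orange points (endoplasmic reticulum chaperones) in the lower left, with Hspa5 at −1.79 and −1.0.

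Genotypes were compared within the Atf3 Chac1 Ddit3 cells, over the 6 sums of their counts and 10813 genes. KO against WT gave 17 higher (0.157%) and 192 lower (1.78%) genes at an edgeR adjusted p under 0.05, DeltaSP against WT 6 and 6 (0.0555% each), and KO against DeltaSP 2 (0.0185%) and 3 (0.0277%). The KO against WT counts moved in both directions when a WT or KO library was left out. Each such fit left that genotype with 1 clone, so it does not show that the counts rested on the library left out. In simulated counts with the spread of these libraries, the KO against WT test found 31% of genes changed by 2 times and 91% of those changed by 4 times, so changes of the former size were often not detectable.

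Of 75 integrated stress response and ATF4 list genes, 0 passed in either direction in any of the 3 comparisons (edgeR; 656 to 1347 of all 10813 genes had an unadjusted p under 0.05). KO against WT, the log2 fold change was −0.05 for Trib3, −0.07 for Asns, −0.08 for Atf4 and 0.10 for Hspa5. Junb was at −0.67 (edgeR adjusted p = 0.22). The rule genes were among the genes of the genotype fit, but their values there are not read, since the rule selected on them.

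Of the named genes that passed between genotypes, comparison levels are given for 5330434G04Rik, Cd2, Cdkn1c and mt-Nd3. For these genes the mutant libraries differed from WT in the same direction in the comparison cells. The targeted transcript 5330434G04Rik was at 24.6 and 25.8 CPM in WT, 16.5 and 11.9 in DeltaSP and 0 in both KO libraries, at least 16.8-fold lower in KO than in WT with a floor of 3 UMIs per library. DeltaSP against WT was −0.96 (edgeR adjusted p = 0.33). In comparison cells the levels were 36.4, 35.9, 24.8, 25.3, 0.19 and 0.23 CPM in library order, the same pattern.

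Cd2, a T cell surface gene, was at 0 in both WT libraries and at 133.1, 82.1, 118.4 and 98.7 CPM in DeltaSP 1, DeltaSP 2, KO 1 and KO 2, at least 34.5-fold higher in KO and 34.2-fold higher in DeltaSP with the same floor. Comparison cells had 0 and 0 CPM in WT and 71.8, 56.0, 67.1 and 74.5 CPM in the mutants. Cd2 lies outside the lncMN2 locus, so WT and mutant lines differed in RNA of at least 1 other gene in every clone, and a genotype difference cannot be told apart from other differences between the lines.

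Cdkn1c, an imprinted cell cycle inhibitor (p57), was at 129.9 and 158 CPM in WT and between 14.5 and 30.4 CPM in the 4 mutant libraries, with log2 fold changes of −2.73 for KO and −3.13 for DeltaSP against WT. In comparison cells it was at 223.6 and 284.1 CPM in WT and 27.3 to 47.7 CPM in the mutants. The mitochondrial gene mt-Nd3 was at 419.6 and 640.3 CPM in WT, 126.2 and 173.2 in DeltaSP and 62 and 75.7 in KO. Its log2 fold changes were −3.21 for KO and −1.94 for DeltaSP, and its comparison levels were 496.9, 749.9, 158.8, 210.1, 70.3 and 103.4 CPM. Grb10, another imprinted growth regulator, and the noncoding Hotairm1 had KO against WT log2 fold changes of −2.75 and −2.52.

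Whether the stress state itself differed between genotypes was tested as the difference of the member against comparison fold change. For DeltaSP against WT 0 of 10845 genes passed in either direction (edgeR; 594 had an unadjusted p under 0.05). For KO against WT 19 genes (0.175%) had a higher fold change in KO and 0 a lower one, and for KO against DeltaSP 34 (0.314%) were higher and 1 (0.00922%), Olig1, lower, by 0.67. Of the 75 integrated stress response and ATF4 list genes, 0 passed in any of these comparisons.

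The genes that passed included neuronal transcripts. The fold change of Stmn2, a microtubule regulator of growing axons, was larger in KO by 1.02 than in WT (edgeR adjusted p = 0.025) and by 0.97 than in DeltaSP (edgeR adjusted p = 0.013). For the microtubule protein gene Mapt these were 1.07 and 0.95, for the noncoding RNA Meg3 0.80 and 0.69, and for the noncoding Snhg11 1.41 and 0.94. In KO 1, the share of cells above the pan-neuronal median was also the highest of the 6 libraries (60.6%). With comparison cells matched on the side of the pan-neuronal median as well, 4 genes were higher and 1 lower for KO against WT and 21 and 1 for KO against DeltaSP. The higher counts moved in both directions when 1 library was left out. For KO against WT they also fell without either DeltaSP library, which is not part of that contrast. Such a library enters it only through what the fit shares, such as the estimate of the spread. A lower count in these fits therefore does not show that the result rested on the library left out.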

How the data were processed

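The authors deposited raw UMI counts per gene and barcode, made with Cell Ranger 4.0 on mm10 with Ensembl release 93, per the submitters' processing notes and the series text. The labels name the 10x 3' kit as V3.1 in the protocol and in another form in the design text. All 31053 genes were read, and no count was normalized before deposit. The cells, the gene lists (38 lists, 519 genes) and the tests were chosen with earlier results of these data known.

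Cells were kept by the limits on genes and mitochondrial share given above, with no doublet removal. Sums of counts per library went into edgeR 4.0.16 (TMM, filterByExpr, quasi-likelihood test) in R 4.3.3, with p-values adjusted by the method of Benjamini and Hochberg at 0.05. The members against comparison fit was blocked by library, and genotype fits had no block. Genes were named as the 15 largest rises and 10 largest falls with 1 sign in all libraries and at least 20 CPM, up to 5 genes of each list by p, and up to 6 rises and 6 falls between genotypes. Not all of these are printed, and others were named after their values were seen. Shares were compared by exact permutation. The tests were checked on simulated counts. Members against comparison recovered 99% of genes changed by 2 times and 100% of those changed by 4 times, with 18 false calls among 10845 genes. Only 100 genes of each kind were changed there, far fewer than were called in the data. The simulation therefore does not give the rate of false calls in the data. Same-numbered libraries of different genotypes did not deviate together (correlations −0.118, 0.00195 and 0.118), so numbers were not taken as pairs. Alternatives were DESeq2 1.42.0 (Wald test and size factors), no filter on low counts, other cell limits, other comparison cells, leaving out each library and a replicate block. Promoter sequences are from RefSeq (GRCm38.p6) and gene coordinates from GENCODE M21 (GRCm38).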

Additional observations from a re-analysis of the deposited data

Results flagged for a closer look

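The fold change of Atf3 Chac1 Ddit3 cells over comparison cells differed between genotypes by the test of the difference itself for 19 genes in KO against WT and for 35 genes in KO against DeltaSP. Among these, Stmn2 differed by 1.02 (KO against WT) and 0.97 (KO against DeltaSP) on the log2 scale, Mapt by 1.07 and 0.95, Meg3 by 0.80 and 0.69 and Snhg11 by 1.41 and 0.94, in each case toward a higher fold change in KO. Cells above the pan-neuronal median made up 60.6% of the Atf3 Chac1 Ddit3 cells in KO 1 and 49.0% in KO 2, against 38.2% to 48.1% in the other libraries. The part of this in the result was not tested beyond the matched comparison. That comparison called 4 higher and 1 lower genes for KO against WT, of which 4 and 0 were among those called before. For KO against DeltaSP it called 21 and 1, of which 17 and 0 were among those called before.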

How the results depend on the processing

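Members against comparison cells gave 2091 to 3054 higher and 2299 to 3739 lower genes over all 14 alternatives, within 1.5 times of the reported counts. Of the named genes only Olig2, which did not pass, changed sign (−0.0756 against cells with none of the 3 genes).

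Share differences from WT changed sign, while KO minus DeltaSP stayed negative, with overlapping clones under some settings. With at least 2 UMIs of each gene, WT 1 held only 6 Atf3 Chac1 Ddit3 cells. KO minus WT was 0.582 points with at least 500 genes and up to 20% mitochondrial UMIs, 0.0204 with at least 2 UMIs of each gene, and −3.78 to 3.48 when 1 library was left out; DeltaSP minus WT was −2.75 to 4.52 when 1 library was left out.

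Genotype counts within the cells moved most. With at least 2 UMIs of each gene, the WT 1 sum held only 6 cells, against 42 to 93 in each other library. KO against WT gave 174 higher and 432 lower genes with no filter, 30 and 126 with at least 2 UMIs of each gene, 23 and 169 with the replicate block, 45 and 269 with the block crossed in WT (added after seeing the data), and 2 to 21 and 6 to 242 without 1 library. DeltaSP against WT gave 129 and 178 with no filter, 13 and 24 with the DESeq2 Wald test, 11 and 10 with at least 2 UMIs, 9 and 12 with the replicate block, 16 and 16 crossed, and 1 to 12 and 2 to 27 without 1 library. KO against DeltaSP gave 55 and 182, 6 and 22, 7 and 7, 3 and 3, 6 and 3, and 0 to 6 and 0 to 21 in the same order. With the numbers not shown to pair libraries, a call lost under the block is not read as a weaker effect.

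For the difference of the fold change, KO against WT gave 59 higher and 6 lower genes against all other kept cells, 4 and 1 with the pan-neuronal match, 123 and 39 with no filter, 4 lower with DESeq2 size factors, and 3 to 29 and 0 to 7 without 1 library. DeltaSP against WT gave 4 and 2 with the match, 15 and 15 with no filter, and 0 to 1 and 0 without 1 library. KO against DeltaSP gave 76 and 5, 21 and 1, 153 and 26, 2 lower with size factors, and 1 to 54 and 0 to 6. The cause was not tested. Depth is a limit of the rule: WT 1, the shallowest library, had the lowest share with all UMIs and not after thinning.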
